A study of Mus musculus with 11 samples.

Results

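The pyruvate dehydrogenase complex turns pyruvate into acetyl-CoA inside mitochondria, and the tricarboxylic acid (TCA) cycle oxidises that acetyl-CoA. Transcripts of 9 enzymes of these steps were followed in mouse inguinal white adipose tissue: Pdha1, Pdhb, Dlat and Pdhx of the complex, and Cs, Idh3a, Ogdh, Fh1 and Mdh2 of the cycle. They were chosen by name, with earlier results of these data known. All 9 passed the expression filter that kept 26960 of the 52282 genes measured. In KO mice given rosiglitazone all 9 were lower than in WT mice given rosiglitazone. In WT mice they stood higher with rosiglitazone than on diet, and 3 of the 9 passed the test. In KO mice none passed for rosiglitazone.

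Bulk RNA sequencing gave 11 libraries of inguinal white adipose tissue, a subcutaneous depot, from C57BL6/J mice aged 16 weeks that had eaten a high-fat diet for 8 weeks. The study addressed how PPARG, the nuclear receptor that rosiglitazone activates, and mTORC1, a growth-regulating kinase complex that needs Raptor (gene Rptor), act together on the transcripts of the depot. KO mice were Raptor floxed and adiponectin Cre positive, so that the deletion was directed at adipocytes and not at the other cells of the depot; WT mice were littermates that were Raptor floxed, with no Cre named. The groups were KO with rosiglitazone in the food at 30 mg per kg per day (n = 3), KO on the high-fat diet alone (n = 2), WT with rosiglitazone at the same dose (n = 3) and WT on the high-fat diet alone (n = 3); WT mice therefore carried the floxed alleles too, and no group ate another diet. Whether libraries within a group are from different mice is not stated in the labels, so p-values measure the spread between these libraries, which may be technical. The titles and the treatment fields of the 6 WT libraries disagree, each title giving the treatment of the other WT group. Groups follow the treatment field, so all results on WT treatment rest on that field; grouping by title turned the sign of all 9 enzymes for rosiglitazone in WT and left 0 of 9 called for KO against WT with rosiglitazone.

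As background, the complex is a large assembly of a decarboxylase (E1, whose alpha and beta chains are encoded by Pdha1 and Pdhb), an acetyltransferase (E2, Dlat), a dehydrogenase (E3, Dld) and a protein that tethers the dehydrogenase (Pdhx). Kinases of the Pdk family switch the complex off by phosphorylating its alpha chain, and phosphatases switch it on again. In adipocytes the citrate made by the cycle can be burned in mitochondria or exported to the cytosol, where it gives the carbon for fatty acid synthesis.

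RefSeq promoter windows (build GRCm38.p6, 250 bases before to 50 after a start) were found for 8 of the 9 genes, not for Idh3a. They are shown because all 9 transcripts were lower in KO than in WT under rosiglitazone. Of 8 motifs searched on both strands, the GC box GGGGCGGGG was the only one found. It was in 3 of the 8 windows, against 11.4% of the 32851 windows of the same length in the RefSeq table. These 3 windows are printed 5′ to 3′ with the GC box in capitals, and for Ogdh, which has 6 windows listed, the window nearest its annotated start was used.
Pdhb promoter (chr14:8172943-8173242, minus strand): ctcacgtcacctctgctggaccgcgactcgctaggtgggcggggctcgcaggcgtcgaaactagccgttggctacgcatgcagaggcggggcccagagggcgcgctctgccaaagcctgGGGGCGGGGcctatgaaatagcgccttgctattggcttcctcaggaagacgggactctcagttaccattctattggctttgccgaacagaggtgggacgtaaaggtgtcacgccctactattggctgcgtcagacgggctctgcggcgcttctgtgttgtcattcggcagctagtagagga
Ogdh promoter (chr11:6291409-6291708, plus strand): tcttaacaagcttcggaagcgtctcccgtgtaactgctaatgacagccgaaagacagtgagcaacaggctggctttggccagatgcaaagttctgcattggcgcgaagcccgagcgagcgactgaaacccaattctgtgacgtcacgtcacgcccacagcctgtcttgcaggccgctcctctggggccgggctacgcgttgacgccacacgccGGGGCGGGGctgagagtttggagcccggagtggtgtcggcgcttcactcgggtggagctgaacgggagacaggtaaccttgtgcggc
Mdh2 promoter (chr5:135778399-135778698, plus strand): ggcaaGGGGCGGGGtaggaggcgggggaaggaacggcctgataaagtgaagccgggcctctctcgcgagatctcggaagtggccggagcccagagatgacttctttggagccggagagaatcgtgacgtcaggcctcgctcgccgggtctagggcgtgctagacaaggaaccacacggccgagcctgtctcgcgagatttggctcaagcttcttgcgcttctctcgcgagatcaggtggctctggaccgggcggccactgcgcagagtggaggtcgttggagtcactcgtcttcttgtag
The other 7 motifs were the nuclear respiratory factor site (in 4.60% of all windows), the estrogen-related receptor site TCAAGGTCA (0.423%), the nuclear receptor core site AAGGTCA (4.72%), the PPAR direct repeat (0.0396%), the sterol regulatory element TCACNCCAC (1.24%), the E-box CACGTG (7.15%) and the ETS core CCGGAAG (8.86%). The core site lies inside the estrogen-related receptor site. None of these letters occurred in the 8 windows, which had a GC content of 54.3% to 67.3%, against a median of 52.7% over all windows. A match, or none, describes only the letters of these windows.

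The libraries held 13035346 to 40925952 estimated reads, and each of the 9 enzymes had 284 to 32589 of them per library. Rptor measured 82.4 to 91.7 CPM in KO with rosiglitazone, 56.5 and 69.6 CPM in KO on diet, 110 to 126 CPM in WT with rosiglitazone, and 73.9 to 92.0 CPM in WT on diet. It was lower in every KO library than in the WT libraries of the same treatment, without passing the test on diet (log2 fold change -0.38 ± 0.17 SE, adjusted p = 0.467) or with rosiglitazone (-0.44 ± 0.15 SE, adjusted p = 0.0749). All 14 mature adipocyte markers had reads in every library. Skeletal muscle markers took over 0.5% of reads in 4 libraries: replicate 2 of KO with rosiglitazone, replicates 2 and 3 of WT with rosiglitazone, and replicate 2 of WT on diet. In a bulk library, fewer cells of a type and less RNA per cell cannot be told apart.

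Levels are given first for the complex. They are in CPM, estimated reads scaled by the library total after edgeR's TMM scaling had adjusted that total. Pdha1 (ENSMUSG00000031299.10, GRCm38 chromosome X, 160122209 to 160138413, minus strand) encodes the E1 alpha chain, which the kinases phosphorylate. It measured 123, 187 and 115 CPM in KO with rosiglitazone, 575 and 191 CPM in KO on diet, 349, 511 and 343 CPM in WT with rosiglitazone, and 231, 148 and 105 CPM in WT on diet. The highest of the 11 values was in replicate 1 of KO on diet, and every KO library with rosiglitazone lay below every other library outside WT on diet.

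Pdhb (ENSMUSG00000021748.9, chromosome 14, 8165996 to 8173025, minus strand) encodes the E1 beta chain. It measured 67.6, 101 and 67.6 CPM in KO with rosiglitazone, 178 and 82.5 CPM in KO on diet, 176, 239 and 171 CPM in WT with rosiglitazone, and 108, 71.7 and 59.8 CPM in WT on diet. The 3 WT libraries with rosiglitazone and replicate 1 of KO on diet were the high ones.

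Dlat (ENSMUSG00000000168.9, chromosome 9, 50634633 to 50659780, minus strand) encodes the E2 core, which passes the acetyl group to coenzyme A on a lipoic acid arm. It measured 67.3, 119 and 67.8 CPM in KO with rosiglitazone, 299 and 87.5 CPM in KO on diet, 222, 365 and 250.3 CPM in WT with rosiglitazone, and 131, 69.1 and 45.8 CPM in WT on diet. As for both E1 chains, replicate 1 of KO on diet was at or above the lowest WT library with rosiglitazone, and replicate 2 was not.

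Pdhx (ENSMUSG00000010914.10, chromosome 2, 103021075 to 103073513, minus strand) encodes the protein that binds the E3 dehydrogenase to the core. It measured 18.5, 22.5 and 17.7 CPM in KO with rosiglitazone, 32.5 and 15.1 CPM in KO on diet, 57.4, 68.8 and 65.1 CPM in WT with rosiglitazone, and 31.8, 22.0 and 18.4 CPM in WT on diet. Here the 3 WT libraries with rosiglitazone were apart from the other 8, replicate 1 of KO on diet included.

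**Figure D1:**
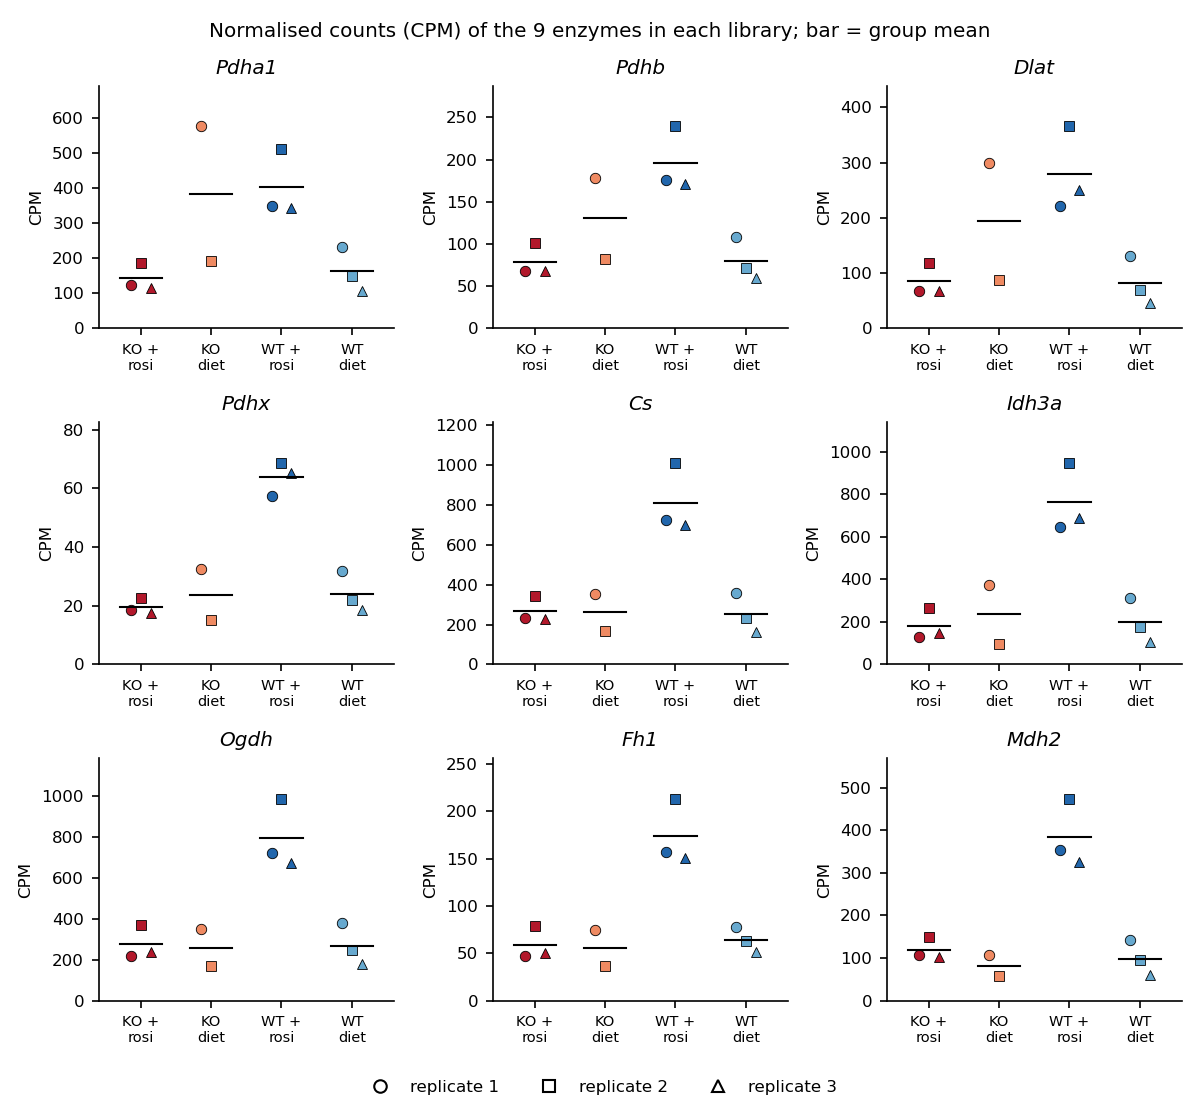
CPM of the 9 enzymes in each library, with a panel per gene, the 4 groups along the horizontal axis, a marker shape per replicate number and a bar at the group mean. The 3 WT libraries with rosiglitazone stand above all other libraries for Pdhx, Cs, Idh3a, Ogdh, Fh1 and Mdh2, while replicate 1 of KO on diet reaches them for Pdha1, Pdhb and Dlat.

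Of the cycle enzymes, Cs (ENSMUSG00000005683.8, chromosome 10, 128337734 to 128362479, plus strand) encodes citrate synthase, which joins acetyl-CoA to oxaloacetate. It measured 232, 342 and 230.1 CPM in KO with rosiglitazone, 356 and 166 CPM in KO on diet, 724, 1014 and 701 CPM in WT with rosiglitazone, and 359, 236 and 164 CPM in WT on diet. The lowest WT library with rosiglitazone was above the highest of the other 8, and those 8 overlapped.

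Idh3a (ENSMUSG00000032279.11, chromosome 9, 54586334 to 54604661, plus strand) encodes the catalytic alpha subunit of the NAD-dependent isocitrate dehydrogenase. It measured 127, 265 and 146 CPM in KO with rosiglitazone, 375 and 95.0 CPM in KO on diet, 647, 949 and 689 CPM in WT with rosiglitazone, and 314, 175 and 104 CPM in WT on diet. Ogdh (ENSMUSG00000020456.17, chromosome 11, 6291633 to 6356642, plus strand), the decarboxylase of the 2-oxoglutarate dehydrogenase complex, measured 217, 369.6 and 239 CPM in KO with rosiglitazone, 347 and 169 CPM in KO on diet, 721, 985 and 674 CPM in WT with rosiglitazone, and 379.9, 245 and 179.7 CPM in WT on diet. Both showed the same split of 3 high and 8 lower libraries as Cs.

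Fh1 (ENSMUSG00000026526.14, chromosome 1, 175600374 to 175625635, minus strand) encodes fumarase, which hydrates fumarate to malate. It measured 46.8, 78.7 and 49.8 CPM in KO with rosiglitazone, 74.4 and 36.4 CPM in KO on diet, 156, 213 and 150.2 CPM in WT with rosiglitazone, and 77.9, 62.7 and 51.6 CPM in WT on diet. Mdh2 (ENSMUSG00000019179.10, chromosome 5, 135778480 to 135790398, plus strand), the mitochondrial malate dehydrogenase that closes the cycle, measured 108, 149 and 103 CPM in KO with rosiglitazone, 107 and 57.7 CPM in KO on diet, 353, 474 and 326 CPM in WT with rosiglitazone, and 142, 94.4 and 60.1 CPM in WT on diet. For these enzymes too the WT libraries with rosiglitazone stood above all others.

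Divided by transcript length, Pdha1 ranked 2 and 1 among the 9 in the KO libraries on diet and 5 or 6 in the other libraries. In CPM per kilobase, KO with rosiglitazone had Mdh2 at 125 ± 34.5 and Idh3a at 109 ± 44.8 at the top, and Pdhx at 9.37 ± 1.11 at the bottom (SD, n = 3). KO on diet had Pdha1 at 149 ± 103 and Idh3a at 149 ± 126 at the top and Pdhx at 11.7 ± 6.14 at the bottom (SD, n = 2). Idh3a led in WT with rosiglitazone at 473 ± 104, ahead of Mdh2 at 413 ± 87.2, Cs at 291 ± 62.9 and Ogdh at 221 ± 49.1, and the 3 libraries had Pdhx between 38.9 and 44.9 (errors are SD, n = 3). Idh3a at 121 ± 65.3 and Mdh2 at 108 ± 43.8 led in WT on diet, where Pdhx was at 12.5 ± 2.81 (SD, n = 3 libraries). Pdhx was lowest in all 11 libraries, and the neighbours Idh3a and Mdh2, Cs and Ogdh, and Pdha1 and Pdhb overlapped over the libraries of each WT group.

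KO against WT under rosiglitazone asked whether the treated tissue carries these transcripts at the same level without Raptor in adipocytes. All 9 fell below the WT level and passed the threshold, where 9.5% of the 26960 genes tested were called lower and 5.47% higher by edgeR's quasi-likelihood test at a Benjamini-Hochberg adjusted p under 0.05. Their median log2 fold change was -1.60, against 0.05 over all genes. The 9 also did not overlap between the groups, KO libraries being lower, as 24.7% of all genes did; 3 against 3 libraries cannot give an exact two-sided p below 0.1.

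Idh3a had the lowest log2 fold change, -2.09 ± 0.55 SE (adjusted p = 0.0330), with means of 179 ± 75.1 CPM in KO and 761 ± 164 CPM in WT (SD, n = 3 each). Pdhx fell by 1.71 ± 0.29 SE (adjusted p = 0.00601), at 19.5 ± 2.60 CPM in KO and 63.8 ± 5.86 CPM in WT (SD, n = 3 each), and had the smallest p. Mdh2 (-1.68, adjusted p = 0.0127), Cs (-1.60, 0.0203), Fh1 (-1.57, 0.0108) and Ogdh (-1.53, 0.0245) of the cycle lay close together. Of the complex, Dlat was at -1.72 (adjusted p = 0.0477), Pdha1 at -1.50 (0.0432) and Pdhb at -1.31 (0.0271), the value nearest 0.

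The same comparison differed in cell type markers. Mature adipocyte markers, 14 in number, summed to 6128 to 6966 CPM in KO with rosiglitazone and 39224 to 44807 CPM in WT with rosiglitazone, and 13 of the 14 were called lower (median log2 fold change -2.72). Macrophage markers summed to 2569 to 3182 CPM in KO and 702 to 866 CPM in WT, with 9 of 12 called higher, and their part in the enzyme values was not tested. B cell markers summed to 586 to 707 CPM in KO and 21.4 to 330 CPM in WT. T and NK cell markers gave 252 to 281 CPM in KO and 16.2 to 108 CPM in WT. Brown and beige adipocyte markers overlapped, at 260 to 609 CPM in KO and 465 to 909 CPM in WT. Small and ribosomal RNA took 31.7%, 19.6% and 19.8% of reads in KO with rosiglitazone and 15.2%, 15.4% and 14.5% in WT with rosiglitazone, without overlap. Its part in the enzyme values was not tested.

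With the summed mature adipocyte markers as a covariate, 0 of the 9 enzymes were called lower and 7 of the 9 signs turned positive (median 0.24). Those sums were lower in all 5 KO libraries than in all 6 WT libraries, so the covariate and the genotype cannot be told apart. Skeletal muscle markers summed to 178, 42650 and 234 CPM in KO with rosiglitazone and 259, 10836 and 20152 CPM in WT with rosiglitazone, with 0 of 18 called. Without the 4 muscle-rich libraries the median of the 9 enzymes was -1.59, about as large, while no gene at all was called in that fit, which keeps 1 WT library with rosiglitazone. Leaving out 1 library brought the count of 9 down to 1 without replicate 1 or 3 of KO with rosiglitazone. The count was 4, 2 and 5 without replicates 1, 2 and 3 of WT with rosiglitazone. Over all 11 such fits 36 calls were lost and 63 kept, so calls were also lost outside the fits named. All 9 signs stayed negative.

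**Figure D2:**
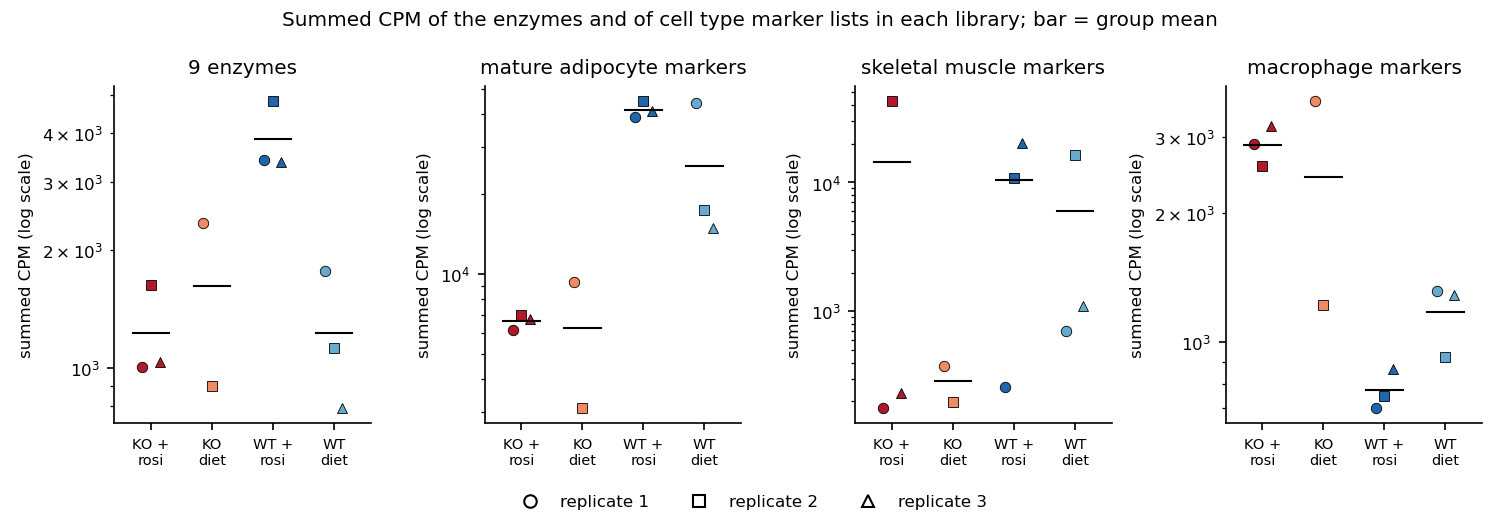
Summed CPM (log axis) of the 9 enzymes and of the mature adipocyte, skeletal muscle and macrophage marker lists in each library, by group, with a bar at the group mean. The 5 KO libraries lie below all 6 WT libraries for mature adipocyte markers, and muscle markers run from 178 to 42650 CPM among the 3 KO libraries with rosiglitazone.

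On diet alone, none of the 9 enzymes passed between KO and WT, where 0.137% of all genes were called in either direction. The median was 0.05, against 0.02 over all genes. The largest values belonged to Pdha1 (log2 fold change 1.24 ± 0.47 SE, adjusted p = 0.376) and Dlat (1.24 ± 0.54 SE, adjusted p = 0.464), which had an unadjusted p under 0.05, while DESeq2 called 0 of 9. Pdhb was at 0.71 ± 0.36 SE, and the other 6 lay between -0.27 and 0.25. Pdha1 averaged 383 ± 271 CPM in KO (SD, n = 2) and 162 ± 64.1 CPM in WT (SD, n = 3). The KO libraries were unlike each other, with the 9 enzymes summing to 2344 and 900.3 CPM, against 1774, 1124 and 789 CPM in WT. Without replicate 1 of KO on diet, Pdha1 was at 0.24 and Dlat at 0.09. For Cs, whose log2 fold change was 0.05, the 95% interval, not adjusted for the number of genes, ran from -0.92 to 1.01. The interval ran from 0.14 to 2.34 for Pdha1 and from -0.05 to 2.53 for Dlat.

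Replicate 1 of KO on diet also had the higher marker sums of its group, at 9348 against 3116 CPM for mature adipocyte markers in replicates 1 and 2, 3635 against 1216 CPM for macrophage markers, and 759 against 180.0 CPM for brown and beige adipocyte markers. Its B cell markers summed to 26.9 CPM, against 977 CPM in replicate 2. In WT on diet, brown and beige adipocyte markers summed to 51.8 to 154 CPM, below both KO libraries. At an unadjusted p under 0.05 by edgeR, 6 of 12 of these markers and 10 of 12 macrophage markers were higher in KO on diet. So were 1233 of all 26960 genes. Of the 14 mature adipocyte markers 11 were lower, as were 1596 of all genes. The part of these differences in the enzyme values was not tested. Titles in place of the treatment field gave 5 of 9 called, all 9 lower in KO (median -1.62), and the adipocyte marker covariate gave 7 of 9 called higher (median 1.42). Over all genes these fits called 2886 and 4001 in either direction.

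Rosiglitazone in KO tissue left the 9 enzymes without a called change, where 0.0148% of all genes were called in either direction. Their median log2 fold change was -0.28, against -0.01 over all genes. Pdha1 averaged 142 ± 39.6 CPM with rosiglitazone (SD, n = 3) and 383 ± 271 CPM on diet (SD, n = 2), a log2 fold change of -1.44 ± 0.47 SE (adjusted p = 0.433). It was the 1 enzyme of 9 with an unadjusted p under 0.05 and the 1 whose groups did not overlap, as for 10.7% of all genes in that direction; 3 against 2 libraries cannot give an exact two-sided p below 0.2. DESeq2 also called 0. At an unadjusted p under 0.05 by edgeR, 1151 of all 26960 genes were lower. Dlat (-1.19 ± 0.54 SE) and Pdhb (-0.73 ± 0.36 SE) lay on the same side, Mdh2 at 0.55 ± 0.39 SE on the other, and Cs, Ogdh and Fh1 between 0.04 and 0.09. Without replicate 1 of KO on diet, Pdha1 was at -0.43, Dlat at -0.05 and Mdh2 at 1.06.

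In WT tissue rosiglitazone went with higher levels of all 9 enzymes, and 3 rose past the threshold, where 1.55% of all genes were called higher and 0.593% lower. Mdh2 rose by 1.96 ± 0.35 SE (adjusted p = 0.0287), at 384 ± 79.1 CPM with rosiglitazone and 98.7 ± 40.9 CPM on diet (SD, n = 3 each). Pdhx rose by 1.40 ± 0.29 SE (adjusted p = 0.0409), at 63.8 ± 5.86 CPM with rosiglitazone and 24.1 ± 6.95 CPM on diet. Fh1 rose by 1.44 ± 0.31 SE (adjusted p = 0.0475), at 173 ± 34.6 CPM with rosiglitazone and 64.1 ± 13.2 CPM on diet.

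The other 6 had positive values without passing: Cs at 1.69 (adjusted p = 0.0509), Ogdh at 1.56 (0.0645), Pdhb at 1.29 (0.0780), Idh3a at 1.95 (0.107), Dlat at 1.77 (0.112) and Pdha1 at 1.31 (0.156). All 9 had an unadjusted p under 0.05 with higher levels, as did 2678 of all 26960 genes. The median was 1.56, against -0.05 over all genes. The groups did not overlap for any of the 9, as for 13.4% of all genes in that direction. WT on diet varied, with the 9 enzymes at 1774, 1124 and 789 CPM in sum, beside mature adipocyte markers at 44058, 17479 and 14841 CPM and skeletal muscle markers at 707, 16369 and 1100 CPM. With rosiglitazone the enzyme sums were 3406, 4820 and 3369 CPM. Brown and beige adipocyte markers summed to 465 to 909 CPM with rosiglitazone and 51.8 to 154 CPM on diet. Of these 12 markers, 2 were called higher, and 11 values were positive and 1 negative. Ucp1, their defining gene, had 0, 369 and 0 reads on diet and 1268, 3690 and 374 with rosiglitazone. It did not pass edgeR's test (3.34 ± 1.77 SE, adjusted p = 0.373). Macrophage markers summed to 702 to 866 CPM with rosiglitazone and 923 to 1314 CPM on diet. B cell markers summed to 330, 21.4 and 164 CPM with rosiglitazone and 31.9, 870 and 780 CPM on diet (replicates 1, 2 and 3). T and NK cell markers gave 92.1, 16.2 and 108 CPM with rosiglitazone and 22.1, 275 and 215 CPM on diet. The part of these cells in the enzyme values was not tested beyond the covariates given here.

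The number called in WT depended on the fit. It was 9 of 9 by DESeq2, 0 with the muscle marker covariate or without the muscle-rich libraries (median 1.51 and 1.29), and 0 without any 1 of the 3 WT libraries with rosiglitazone, replicate 2 or 3 of WT on diet, or replicate 1 or 3 of KO with rosiglitazone. It was 1 without replicate 2 of KO with rosiglitazone, and 8 without either KO library on diet or without replicate 1 of WT on diet. Over all genes DESeq2 called 1981.

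**Figure D3:**
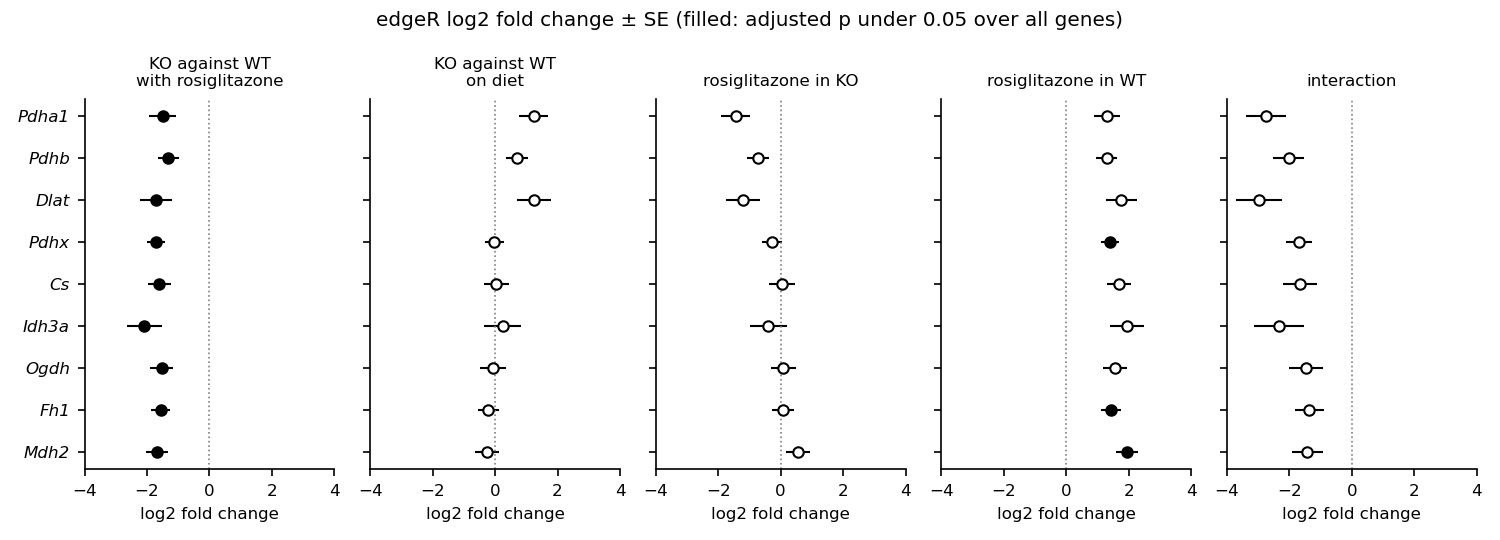
Log2 fold changes from edgeR with their standard errors for the 9 enzymes in 5 panels: KO against WT with rosiglitazone, KO against WT on diet, rosiglitazone in KO, rosiglitazone in WT, and the interaction. Filled points passed an adjusted p of 0.05, which are all 9 in the first panel, Pdhx, Fh1 and Mdh2 in the fourth and none in the others.

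The difference between the rosiglitazone effects in KO and in WT was tested as an interaction, and none of the 9 passed, where 0.104% of all genes were called. All 9 values were negative, from -1.36 for Fh1 to -2.96 ± 0.74 SE for Dlat (adjusted p = 0.205), with -2.75 ± 0.63 SE for Pdha1 (adjusted p = 0.159) and -2.02 ± 0.49 SE for Pdhb (adjusted p = 0.182). Each had an unadjusted p under 0.05, as did 1520 of all 26960 genes with negative values. The adjusted p ran from 0.159 to 0.393. DESeq2 called 4 of the 9, as did edgeR without replicate 2 of KO on diet. Over all genes these fits called 531 and 348. The interaction and the comparisons above share libraries, so they are not separate evidence.

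Levels relative to citrate synthase show how the enzymes stood to each other within a library, whatever the library's scaling; this ratio of read counts was added after the values had been seen and has no test. Pdha1 was at 0.531, 0.548 and 0.499 of Cs in KO with rosiglitazone, 1.61 and 1.15 in KO on diet, 0.482, 0.504 and 0.489 in WT with rosiglitazone, and 0.645, 0.630 and 0.643 in WT on diet. Dlat was at 0.290, 0.348 and 0.295 in KO with rosiglitazone, 0.840 and 0.527 in KO on diet, 0.306, 0.360 and 0.357 in WT with rosiglitazone, and 0.364, 0.293 and 0.279 in WT on diet. Pdhb was at 0.501 and 0.497 in KO on diet, against 0.301 to 0.365 in WT on diet. Both KO libraries on diet, though they differed in level, had more of these 3 subunits per Cs than any other library.

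Mean ratios of KO on diet over WT on diet were 2.16-fold for Pdha1, 2.19-fold for Dlat and 1.54-fold for Pdhb. On diet 3.17% of all genes had a higher ratio to Cs in every KO library than in any WT library. Pdhx, the other subunit of the complex measured here, was at 0.0912 and 0.0911 in KO on diet and 0.0887 to 0.112 in WT on diet, which overlap. Mdh2 was lower relative to Cs in KO on diet, at 0.299 and 0.348, against 0.367 to 0.401 in WT on diet, as were 10.2% of all genes. Ogdh was also lower relative to Cs in KO on diet without overlap, at up to 1.017, against 1.041 or more in WT on diet. Over all 11 libraries Ogdh kept to 0.938 to 1.10 of Cs, a narrow range beside that of Pdha1.

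Under rosiglitazone, mean ratios of KO over WT were 0.697-fold for Idh3a, 1.22-fold for Pdhb and 0.912-fold to 1.07-fold for the other 6. Idh3a was at 0.548 to 0.777 of Cs in KO and 0.893 to 0.982 in WT, without overlap, as for 2.06% of all genes in that direction. Pdhb was at 0.292 to 0.295 in KO and 0.236 to 0.244 in WT, as for 78.7% of all genes. The other 6 overlapped. Within KO, Pdha1, Pdhb, Dlat and Pdhx had lower ratios to Cs with rosiglitazone than on diet in every library (8.54% of all genes), and Mdh2 a higher one, at 0.435 to 0.465 with rosiglitazone and 0.299 to 0.348 on diet (3.73%). Within WT, Idh3a (0.893 to 0.982 with rosiglitazone, 0.635 to 0.874 on diet) and Mdh2 (0.464 to 0.487 with rosiglitazone, 0.367 to 0.401 on diet) were higher per Cs, as were 0.286% of all genes. Since Cs itself was high in that group, most genes had lower ratios there (81.3%), among them Pdha1, Pdhb, Ogdh and Fh1.

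**Figure D4:**
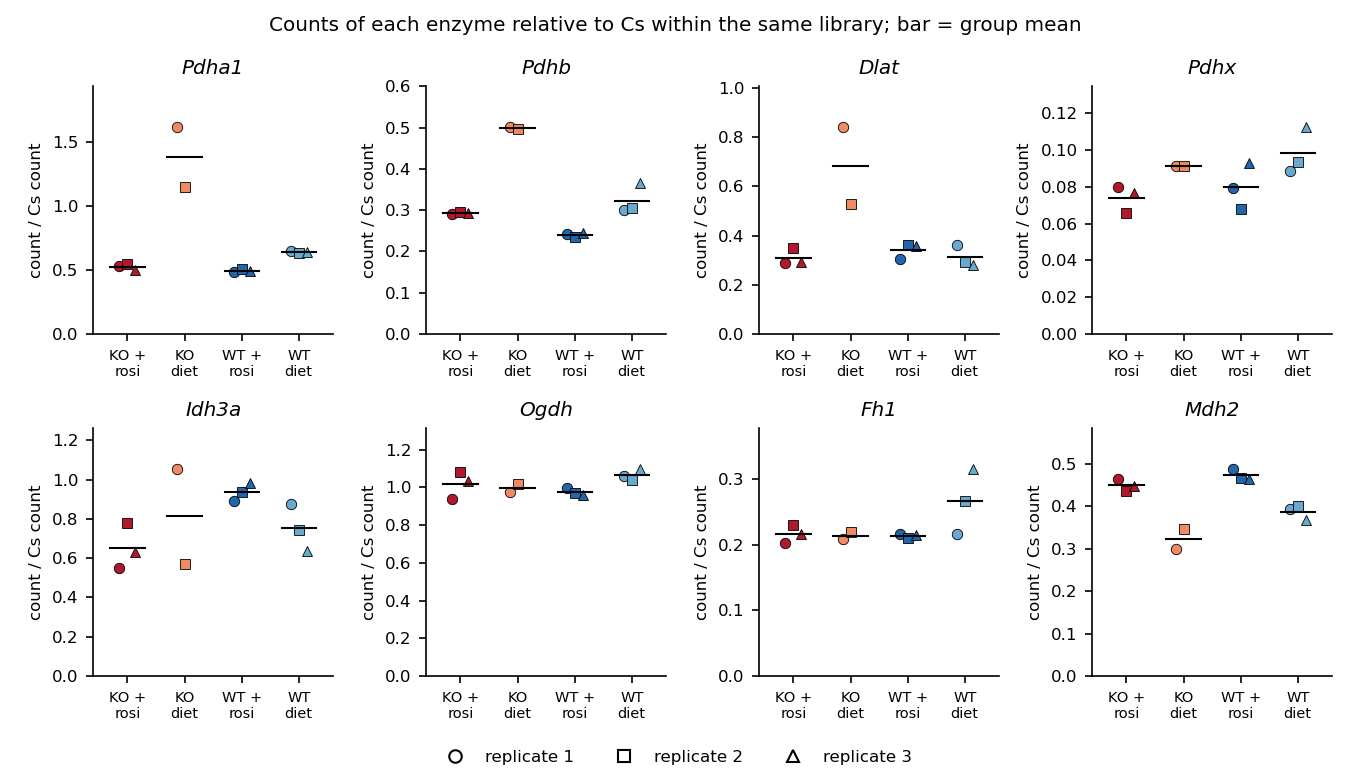
Read count of each of the other 8 enzymes divided by the Cs count of the same library, by group, with a bar at the group mean. Both KO libraries on diet lie above all others for Pdha1, Pdhb and Dlat, at 1.15 and 1.61, 0.497 and 0.501, and 0.527 and 0.840.

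Genes around the complex were read as a list of 10: Dld, the 4 kinases, the phosphatase genes Pdp1, Pdp2 and Pdpr, and the mitochondrial pyruvate carrier subunits Mpc1 and Mpc2. Under rosiglitazone 7 of the 10 were lower in KO than in WT and 1 was higher (median -1.18). Pdk2, the kinase found in most tissues, measured 28.9, 52.9 and 29.0 CPM in KO with rosiglitazone, 36.4 and 22.4 CPM in KO on diet, 92.2, 113 and 93.4 CPM in WT with rosiglitazone, and 33.4, 30.5 and 23.7 CPM in WT on diet. It fell in KO under rosiglitazone (-1.43 ± 0.28 SE, adjusted p = 0.00994) and rose with rosiglitazone in WT (1.77 ± 0.28 SE, adjusted p = 0.0214). Calls for rosiglitazone in WT were unstable in this and the next 3 lists: all 12 genes named for them lost the call without any 1 WT library with rosiglitazone, without replicate 2 or 3 of WT on diet, or with limma on TPM, and 9 of 12 lost it with the muscle marker covariate.

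Pdk3, another kinase of the complex, went the other way. It measured 9.41, 9.94 and 10.2 CPM in KO with rosiglitazone, 8.72 and 10.9 CPM in KO on diet, 6.04, 3.58 and 5.39 CPM in WT with rosiglitazone, and 13.8, 12.3 and 12.4 CPM in WT on diet. It was higher in KO than in WT under rosiglitazone (0.98 ± 0.20 SE, adjusted p = 0.0130) and fell with rosiglitazone in WT (-1.36 ± 0.20 SE, adjusted p = 0.0186). Mpc2 (-1.48, adjusted p = 0.0193) and Pdpr, the regulatory subunit of the phosphatase (-0.90, adjusted p = 0.0234), were lower in KO under rosiglitazone, and both lost the call without replicate 1 or 3 of KO, or 2 or 3 of WT, with rosiglitazone. Pdk2 and Pdk3 lost it without replicate 3 of KO with rosiglitazone. Named after their values were seen, to complete the kinases and the carrier, Pdk4 (-2.73, adjusted p = 0.0352) and Mpc1 (-2.11, adjusted p = 0.0377) were lower in the same comparison, while Pdk1 was at -0.13 (adjusted p = 0.694).

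A further 11 genes encode other subunits and enzymes of the cycle. Under rosiglitazone 10 of 11 were lower in KO than in WT (median -1.53), led by Sdha, the flavoprotein of succinate dehydrogenase (-1.67 ± 0.31 SE, adjusted p = 0.00805), Suclg2, the GTP-forming succinyl-CoA ligase subunit (-1.18, 0.00843), Idh3g, a regulatory subunit of isocitrate dehydrogenase (-1.64, 0.0103), and Sdhb, the iron-sulfur subunit (-1.48, 0.0128). Without replicate 3 of KO with rosiglitazone Idh3g and Sdhb lost the call, as did Idh3g without replicate 1 of KO and Sdhb without replicate 2 of WT with rosiglitazone. With rosiglitazone in WT 5 of 11 rose (median 1.53), among them Sdhb (1.73 ± 0.31 SE, adjusted p = 0.0287), Idh3b (1.75, 0.0385), Suclg1 (1.61, 0.0401) and Dlst, the acyltransferase of the 2-oxoglutarate dehydrogenase complex (1.53, 0.0445).

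Of 7 genes that make or attach lipoic acid, the cofactor that Dlat and Pdhx carry, 6 were lower in KO under rosiglitazone (median -1.35). Mecr, the reductase of mitochondrial fatty acid synthesis from which lipoic acid starts, fell by 2.10 ± 0.30 SE (adjusted p = 0.00300) and Lias, the lipoic acid synthase, by 1.52 ± 0.25 SE (adjusted p = 0.00479). Lipt1, a lipoyl transferase (-1.53, adjusted p = 0.00640), and Mcat, which loads malonyl groups for mitochondrial fatty acid synthesis (-1.19, 0.00700), fell too. In WT, rosiglitazone raised 3 of the 7: Mecr by 1.73 (adjusted p = 0.0269), Mcat by 1.19 (0.0287) and Lipt1 by 1.41 (0.0310).

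Enzymes and carriers that feed or drain the cycle were split. Of 15, 7 were lower and 4 higher in KO under rosiglitazone. Slc25a1, the carrier that exports citrate, measured 25.8, 21.8 and 23.6 CPM in KO with rosiglitazone, 57.5 and 38.7 CPM in KO on diet, 139, 182 and 147 CPM in WT with rosiglitazone, and 132, 60.6 and 35.5 CPM in WT on diet, and fell in KO under rosiglitazone by 2.71 ± 0.42 SE (adjusted p = 0.00380). Slc25a10, the dicarboxylate carrier (-2.59, adjusted p = 0.00445), and Pcx, pyruvate carboxylase, which makes oxaloacetate (-3.00, 0.00668), also fell. Over the 15 the median was -0.92, against 0.05 over all genes.

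Slc25a13, the aspartate-glutamate carrier citrin, was higher in KO under rosiglitazone by 2.85 ± 0.23 SE (adjusted p = 0.000306). It measured 9.16, 11.4 and 12.1 CPM in KO with rosiglitazone, 6.35 and 3.91 CPM in KO on diet, 1.49, 1.34 and 1.71 CPM in WT with rosiglitazone, and 3.77, 3.83 and 3.44 CPM in WT on diet. It was highest in KO with rosiglitazone and lowest in WT with rosiglitazone, and its interaction was 2.37 ± 0.34 SE (adjusted p = 0.0448), a call lost with effective length offsets (1.65, adjusted p = 0.320), among other settings. It fell with rosiglitazone in WT (-1.29 ± 0.23 SE, adjusted p = 0.0287), where Me2, the mitochondrial malic enzyme, also fell (-0.74, 0.0438) and Slc25a11, the oxoglutarate carrier, rose (1.06, 0.0185). For rosiglitazone in KO and for KO against WT on diet, edgeR called 0 of the 43 genes in these 4 lists. At an unadjusted p under 0.05 there were 4 for rosiglitazone in KO and 6 for KO against WT on diet. Of all 26960 genes, 1103 were higher and 1151 lower at that threshold for rosiglitazone in KO. For KO against WT on diet 1233 were higher and 1596 lower. DESeq2 called 2 of the 43 in each comparison, and 364 and 736 over all genes.

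**Figure D5:**
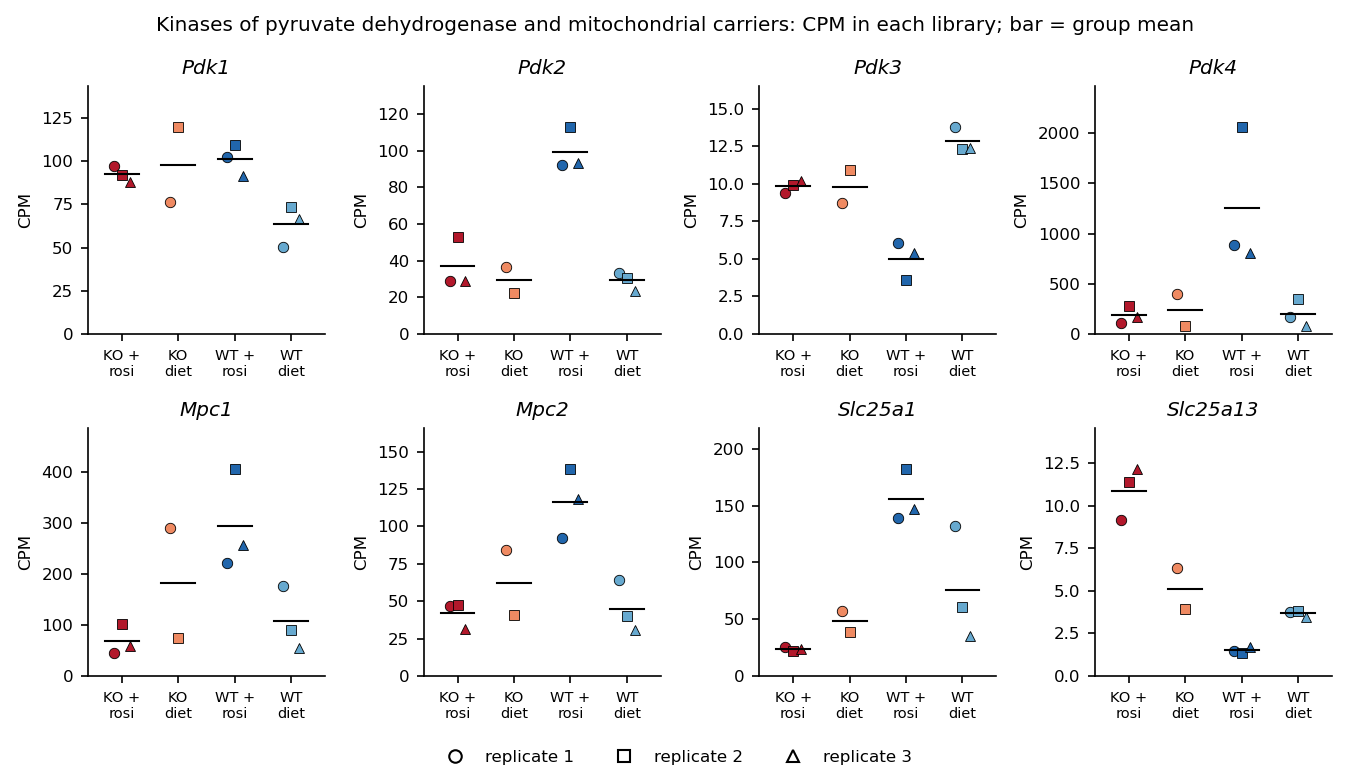
CPM of the 4 pyruvate dehydrogenase kinases, the pyruvate carrier subunits Mpc1 and Mpc2, the citrate carrier Slc25a1 and the aspartate-glutamate carrier Slc25a13 in each library, with a bar at the group mean. Pdk2 is high in the 3 WT libraries with rosiglitazone (92.2 to 113 CPM), where Pdk3 (3.58 to 6.04 CPM) and Slc25a13 (1.34 to 1.71 CPM) are at their lowest.

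The genes whose pattern over the 11 libraries was most like the mean of the 9 enzymes were looked for among 8363 genes whose mean log2 CPM reached 4 and that had a gene name other than a clone or model number, by the root mean square difference of centred log2 CPM. The nearest 8 were Cycs (0.112; cytochrome c), Etfdh (0.133; electron transfer from fatty acid oxidation), Prdx3 (0.155; a mitochondrial peroxiredoxin), Atp5b (0.156; ATP synthase), Ndufa10 (0.165) and mt-Nd5 (0.165) of respiratory complex I, Sdha (0.170) and Crat (0.172; carnitine acetyltransferase). Among the 9 themselves, Cs (0.137) and Ogdh (0.151) were nearest their own mean and Pdha1 (0.409) was farthest, with 351 other genes nearer than it. Mdh2 (0.341), Dlat (0.337) and Idh3a (0.303) were also apart from the mean, and Fh1 (0.218), Pdhb (0.252) and Pdhx (0.190) lay between. All these patterns share the depth and cell makeup of the same 11 libraries.

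Transcripts of each gene were compared by their share of the gene's summed TPM, a description of Salmon's split of reads with no test. Pdha1 came mainly from Pdha1-201 (87.9% to 98.1% over the 11 libraries) and Cs from Cs-201 (92.7% to 99.2%), both coding. For Idh3a most went to Idh3a-203, annotated as a retained intron with no coding sequence (70.4% to 79.9%), and 12.2% to 21.7% to the coding Idh3a-201, so the Idh3a level is largely that of a transcript not annotated as coding. For Mdh2, 24.6% to 40.6% went to Mdh2-203, annotated for nonsense-mediated decay.

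For Ogdh-204, a coding transcript with another first exon (6291666 to 6291769 of chromosome 11, against 6291633 to 6291693 for Ogdh-201) and the same 22 coding exons as Ogdh-201, the share was 16.0%, 22.4% and 14.6% in KO with rosiglitazone and 5.47% and 4.14% in KO on diet. In WT it was 12.3%, 11.4% and 9.42% with rosiglitazone and 8.69%, 7.64% and 4.36% on diet. The shares were higher with rosiglitazone than on diet in both genotypes without overlap, and Ogdh-204 was singled out after its values were seen. Of the 28 transcripts of the 9 genes with a mean share of at least 5%, 2 had higher shares with rosiglitazone without overlap in KO, 5 in WT and 1 in both. Lower shares without overlap were found for 3 in KO, 6 in WT and 1 (Fh1-203) in both. Pdhb-201, the coding main form, took 69.3%, 74.1% and 67.9% in KO with rosiglitazone, 78.5% and 64.2% in KO on diet, 88.7%, 90.6% and 91.6% in WT with rosiglitazone, and 86.9%, 72.2% and 61.9% in WT on diet. Most of the rest of Pdhb went to forms annotated as retained introns or processed transcripts. Reads of close copies were few, with 0 for Pdha2 and 0 to 7 per library for Csl.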

How the data were processed

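RNA from 11 samples of inguinal white adipose tissue was sequenced, per the labels' protocols from Trizol extracts and a Nextera XT library kit that is not described as stranded. Salmon, edgeR and the build mm10 (GRCm38) are named in the submitters' processing notes, with versions and settings not given in the sources used here. The authors deposited, per the file headers, an estimated count of reads, an effective length and a TPM value (a transcript's share after correction for length) for each transcript of each library. Estimated counts were summed per gene with GENCODE M21 (131892 of 132288 transcripts matched; the other 396 held 0.0985% to 0.1435% of reads and were left out of library totals) and rounded to whole numbers. Splitting reads between similar transcripts is an estimate, so shares of transcripts are less certain than sums per gene. No unit of the deposited files had been normalized between libraries.

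Samples were grouped by the genotype and treatment fields. The names of the deposited tables carry the same treatment as that field. Counts were fitted with edgeR 4.0.16 (R 4.3.3), robust quasi-likelihood, TMM scaling, edgeR's expression filter by group, and 1 term per group over all 11 libraries; p-values were adjusted by Benjamini-Hochberg over 26960 genes with a threshold of 0.05. The fit was tested on simulated data. Alternatives were other scalings, no filter, DESeq2 1.42.0, limma 3.58.1 on log2(TPM + 1), effective length offsets, fewer groups, the replicate number as a block, WT by title, marker covariates and left-out libraries. Libraries of a group differed beyond sampling noise (chi-square per degree of freedom 26.5 to 139). Small and ribosomal RNA took 10.7% to 31.7% of reads.

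The enzymes and gene lists were chosen with earlier results of these data known, and 1 gene of a list is not reported here. Neighbour genes are named where called, up to 4 per list and comparison by smallest p, and other names are said to be chosen after their values were seen. CPM per kilobase uses Salmon's effective lengths.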

Additional observations from a re-analysis of the deposited data

Results flagged for a closer look

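The effect of rosiglitazone on Slc25a13, the aspartate-glutamate carrier, differed between genotypes by the test of the difference itself: the log2 effect was 2.37 ± 0.34 SE higher in KO than in WT (adjusted p = 0.0448 by edgeR's quasi-likelihood test). With rosiglitazone all 3 KO libraries, at 9.16 to 12.1 CPM, were above both KO libraries on diet, at 3.91 and 6.35 CPM, and all 3 WT libraries, at 1.34 to 1.71 CPM, were below the WT libraries on diet, at 3.44 to 3.83 CPM. Over the fits that leave out 1 library, its value ran from 2.06 to 2.76 and its adjusted p from 0.0234 to 0.178. The call was lost in 8 of those 11 fits, all but those without a KO library on diet or replicate 1 of WT on diet. It was also lost with effective length offsets (1.65, adjusted p = 0.320), with the replicate block (adjusted p = 0.105), with the muscle marker covariate (0.0989) and with limma on TPM (0.526), and the value was -0.20 with WT grouped by title. In CPM per kilobase the KO groups overlapped, at 3.84 to 5.97 with rosiglitazone and 2.63 and 4.15 on diet. It was 1 of the 28 genes called for this difference among 26960.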

How the results depend on the processing

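Of the 9 enzymes, 9 were called for KO against WT with rosiglitazone, 3 with rosiglitazone in WT and 0 in the other 3 comparisons. For rosiglitazone in WT the count was 6 with upper-quartile scaling, 9 with DESeq2, 0 with limma on TPM, 1 with the replicate block, 0 with the muscle covariate, 6 with the adipocyte covariate, 0 without the muscle-rich libraries and 0 to 8 without single libraries. For rosiglitazone in KO it was 3 with the adipocyte covariate. For KO against WT on diet it was 5 by title and 7 with the adipocyte covariate. For KO against WT with rosiglitazone it was 0 by title, 0 with the adipocyte covariate, 0 without the muscle-rich libraries and 1 to 9 without single libraries. For the interaction it was 4 with DESeq2, 5 with the adipocyte covariate and 0 to 4 without single libraries. For KO against WT with rosiglitazone, some calls of the 9 enzymes were also lost in settings not listed here. Where a count moved, the cause was not tested. Of the 16 neighbour genes named for KO against WT with rosiglitazone, 14 lost the call with the adipocyte covariate, 11 by title, 16 without the muscle-rich libraries and 0 to 6 without single libraries.

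Grouping WT by title turned these log2 values. For rosiglitazone in WT, where the swap of labels sets the sign, they were Cs -1.69, Dlat -1.77, Dlst -1.53, Fh1 -1.44, Idh3a -1.95, Idh3b -1.75, Lipt1 -1.41, Mcat -1.19, Mdh2 -1.96, Me2 0.74, Mecr -1.73, Ogdh -1.56, Pdha1 -1.31, Pdhb -1.29, Pdhx -1.40, Pdk2 -1.77, Pdk3 1.36, Sdhb -1.73, Slc25a11 -1.06, Slc25a13 1.29 and Suclg1 -1.61. For KO against WT with rosiglitazone they were Cs 0.083, Dlat 0.048, Mcat 0.0014, Mdh2 0.28, Ogdh 0.037, Pdk2 0.34, Pdk3 -0.38 and Sdhb 0.25. For KO against WT on diet they were Cs -1.64, Dlat -0.53, Idh3a -1.70, Pdha1 -0.067 and Pdhb -0.58. For the interaction they were Cs 1.72, Dlat 0.58, Fh1 1.51, Idh3a 1.56, Mdh2 2.51, Ogdh 1.66, Pdhb 0.56, Pdhx 1.12 and Slc25a13 -0.20.

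The adipocyte covariate turned Fh1 (0.78), Mdh2 (1.04), Ogdh (1.29) and Pdhx (1.12) for KO against WT on diet, Cs (0.22), Dlat (1.00), Idh3a (0.81), Mdh2 (0.00024), Mpc2 (0.23), Ogdh (0.24), Pdha1 (0.73) and Pdhb (0.35) for KO against WT with rosiglitazone, and Cs (-0.067) and Ogdh (-0.020) for rosiglitazone in KO. The other sign changes were in comparisons where the 9 enzymes were not called. For KO against WT on diet they were Ogdh with limma on TPM (0.10), the muscle covariate (0.080) and upper-quartile scaling (0.021), Pdhx with the muscle covariate (0.061), no filter (0.0039), only the groups compared (0.0074) and upper-quartile scaling (0.053), and Cs with the replicate block (-0.10). For rosiglitazone in KO they were Cs, Fh1, Mdh2 and Ogdh with limma on TPM (-0.77, -0.90, -0.41 and -0.78), Fh1 with length offsets (-0.025), Cs, Fh1 and Ogdh with the muscle covariate (-0.074, -0.075 and -0.041) and without the muscle-rich libraries (-0.17, -0.18 and -0.17), and Cs with upper-quartile scaling (-0.015).

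Without single libraries, values for KO against WT on diet ran from -0.61 to 0.49 for Cs, -1.06 to 0.92 for Idh3a, -0.68 to 0.43 for Pdhx, -0.82 to 0.21 for Fh1, -0.78 to 0.11 for Mdh2 and -0.67 to 0.37 for Ogdh. For rosiglitazone in KO they ran from -1.06 to 0.92 for Idh3a, -0.74 to 0.37 for Pdhx, -0.41 to 0.69 for Cs, -0.35 to 0.68 for Fh1 and -0.34 to 0.71 for Ogdh. A lone library left in a group was assumed to vary like the others.

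Genes called over the whole table numbered 578 (rosiglitazone, WT), 4 (rosiglitazone, KO), 37 (genotype on diet), 4037 (genotype under rosiglitazone) and 28 (interaction). In the same order DESeq2 called 1981, 364, 736, 5966 and 531, limma on TPM 48, 254, 83, 4078 and 5, the muscle covariate 144, 3, 18, 2845 and 1, the adipocyte covariate 1874, 1214, 4001, 2131 and 781, the title grouping 578, 4, 2886, 624 and 154, and the replicate block 430, 1, 1, 3444 and 1. With only the groups compared the first 4 counts were 313, 0, 0 and 8462, and the interaction was not run. Slc25a13 lost its interaction call with the block (2.35, adjusted p = 0.105). Deviations from the group means had correlations of -0.42 to 0.61 over the 15 pairs of libraries with the same replicate number. The 30 other pairs ran from -0.61 to 0.42. Subtracting group means ties these values to each other, so they cannot decide whether the numbers pair libraries. The numbers were not taken to pair them. Upper-quartile scaling moved the median of all genes to -0.11 for rosiglitazone in WT and 0.13 for KO against WT with rosiglitazone.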
